A study of Rattus norvegicus with 72 samples.

Results

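The livers of 5 lactating rats were compared with adipose tissue of the same 5 rats, all kept at standard gravity. The comparison took every array that the labels call liver_lac_standardG or adipose_lac_standardG, which gave 10 of the 72 arrays in the series. Titles carry a rat code, and the liver arrays L201S, L202S, L214S, L216S and L219S each have an adipose array of the same number (A201S and so on), so the arrays were paired by rat. A rat is named below by its liver array. The series as a whole also covers the mammary gland, and rats both in pregnancy and in lactation, kept at standard gravity or in hypergravity, with further pregnant mammary samples from a microgravity experiment. Each array measured 31042 probe sets of a rat expression array, and 20826 of these could be tied to 1 gene symbol, for 14217 genes. No genotype, strain, age, number of days in lactation or litter size, and no adipose depot, stands in the labels, and no group carries a transgene or a drug. Liver RNA was isolated with TRIzol and adipose RNA with an RNeasy Lipid kit, so tissue and isolation method cannot be told apart in any value below.

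In lactation the liver works as a supplier. It takes up amino acids, makes glucose, ketone bodies, cholesterol, bile acids and lipoproteins, disposes of ammonia as urea, and secretes most plasma proteins. White adipose tissue stores triglyceride in lipid droplets and releases it as fatty acids and glycerol, and in a lactating animal its uptake and synthesis of fat are known to be held down in favour of the mammary gland. Both tissues carry out several of the same reactions with different members of a gene family, such as liver and adipocyte fatty acid binding proteins or GLUT2 and GLUT4.

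Values are log2 intensities on the scale of the authors' table, which in these 10 arrays ran from 2.01 to 13.34. A difference of 1 is a 2-fold difference. The lower quartile of an array lay between 3.09 and 3.24, so a gene near 3 had a level among the lowest on the array. The table has no detection calls, and a fold against such a level is approximate. Differences are liver minus adipose tissue, so a negative value is higher in adipose tissue, and are given ± SE of the fit over 5 rats. Beyond the codes nothing in the labels describes separate animals, so the p-values measure the spread between these samples. A gene is represented by its brightest probe set over the 10 arrays. "Called" means an adjusted p under 0.05 in limma with rat as a block, adjusted over all 31042 probe sets by the Benjamini-Hochberg method. Because the arrays hold bulk RNA, fewer cells of a type and less RNA per cell cannot be told apart.

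The labelled tissues carried the markers that their names call for. The mean of 15 hepatocyte genes lay between 11.88 and 12.13 in the 5 livers and between 3.53 and 4.21 in the 5 adipose samples, and each of the 15 was called higher in liver. The mean of 14 adipocyte genes lay between 10.04 and 10.53 in adipose tissue and between 4.79 and 5.10 in liver. Of those 14 genes, 13 were called higher in adipose tissue, and Lep, which encodes leptin, was low in both tissues (3.08 to 4.03 in adipose tissue and 2.79 to 3.61 in liver). Stromal markers were also higher in adipose tissue. Of 12 fibroblast and stellate cell genes, 9 were called higher there, among them Mfap5, a microfibril protein, at 9.39 to 10.58 against 2.59 to 2.92 in liver. Wt1 and Msln, which mark mesothelium, read 10.41 to 10.83 and 8.11 to 9.61 in adipose tissue and 4.02 to 4.85 and 3.35 to 4.49 in liver. Of 10 macrophage genes, 8 were called higher in adipose tissue, and the Kupffer cell lectin Clec4f was the reverse, at 10.55 to 10.96 in liver and 2.79 to 3.09 in adipose tissue. Skeletal muscle markers were low, with a mean over 12 genes of 3.94 to 4.09 in liver and 3.92 to 4.09 in adipose tissue. Red cell markers were higher in adipose tissue, where the mean of 3 genes was 7.37 to 8.62 against 6.11 to 6.96 in liver. The part that blood, mesothelium or stroma had in any difference below was not tested. Within tissues, the adipose samples A201S and A202S stood apart for a brown adipocyte list (mean of 6 genes 5.22 and 5.27 against 4.11 to 4.18), and the liver L214S for a mammary epithelium list (mean of 11 genes 5.76 against 4.43 to 4.95). Values of single rats are given below for the genes concerned.

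**Figure D1:**
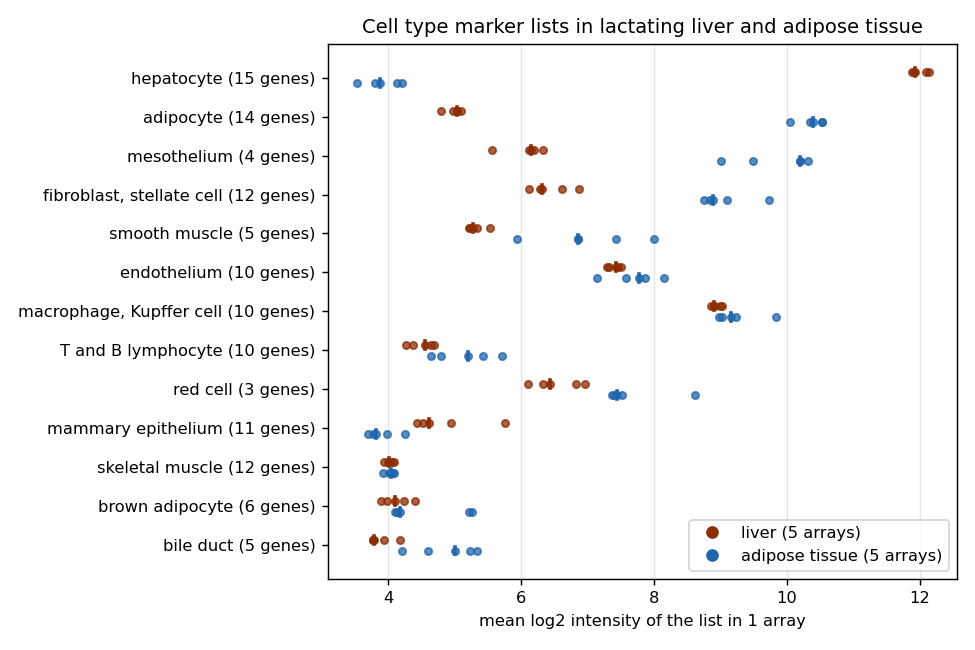
Each point is the mean log2 intensity (x axis) of a cell type marker list (y axis, number of genes in brackets) in 1 array, with liver in brown and adipose tissue in blue and a short bar at the median of 5 arrays. Hepatocyte means of 11.88 to 12.13 in liver and adipocyte means of 10.04 to 10.53 in adipose tissue lie far from the other tissue, while skeletal muscle means overlap near 4.

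The tissues differed across a large part of the array. Of the 31042 probe sets, 5275 were called higher in liver (17.0%) and 6408 higher in adipose tissue (20.6%), or 37.6% in all. By gene, 2867 of 14217 were called higher in liver (20.2%) and 3549 higher in adipose tissue (25.0%). The split depends on how the arrays are aligned: array medians were 4.33 to 4.39 in liver and 4.44 to 4.54 in adipose tissue, and centring each array on its median shifted differences by 0.14 and gave 7681 probe sets higher in liver and 5282 higher in adipose tissue. A difference of at least 1 on the log2 scale, 2-fold, was seen for 1489 genes called higher in liver and 2064 called higher in adipose tissue. At larger sizes the liver side held more: a difference of at least 4, 16-fold, was seen for 352 and 231 genes, and one of at least 8, 256-fold, for 93 and 5 genes. Replicate spread was small beside these values, with a median SD of 0.23 among livers, 0.24 among adipose samples and 0.33 among the 5 per-rat differences.

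**Figure D2:**
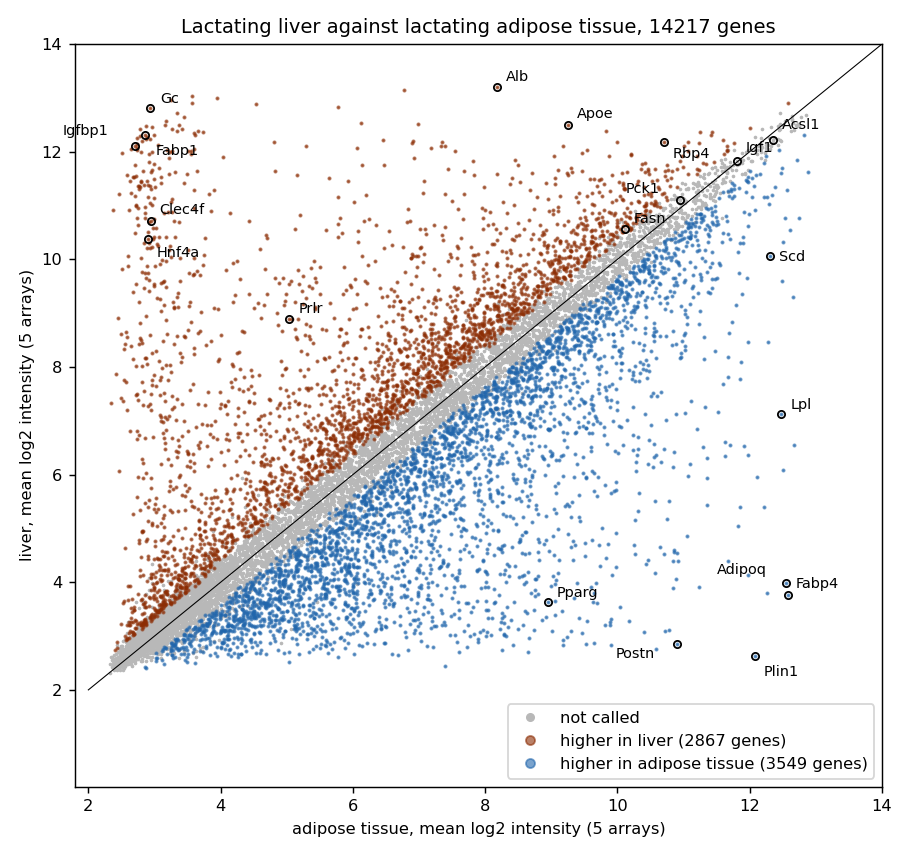
Each of 14217 genes is plotted by its mean log2 intensity over 5 adipose samples (x axis) and over 5 livers (y axis), in brown where called higher in liver (2867 genes), in blue where called higher in adipose tissue (3549 genes) and in grey otherwise, with the line of equal level. Gc, Fabp1 and Igfbp1 sit at the upper left, Plin1, Fabp4 and Adipoq at the lower right, and Igf1, Acsl1 and Pck1 on the line.

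The 10 genes with the largest difference toward liver were mostly secreted carriers, clotting and lipid proteins, with 3 oxidising or reducing enzymes. Gc, the vitamin D binding protein of plasma, read 12.85, 12.82, 12.61, 12.89 and 12.86 in the livers L201S, L202S, L214S, L216S and L219S, and 2.76, 2.93, 3.06, 3.03 and 2.84 in their adipose tissue. All 5 livers stood far above all 5 adipose samples, by 9.88 ± 0.12 (SE; limma adjusted p = 2.2e-09), about 943-fold. Apoh (9.71), Apob (9.64), Cyp2c7 (9.60), Akr1b7 (9.52), Cyp2c12 (9.50), Fetub (9.49), Fga (9.47), Fabp1 (9.46) and Ambp (9.46) followed, each at 3.8 or less in every adipose sample. Cyp2c12 is the female-type steroid hydroxylase of rat liver. The male-type Cyp2c11 differed by 1.68.

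The 10 genes with the largest difference toward adipose tissue were led by the coat protein of the adipocyte lipid droplet. Plin1, or perilipin 1, read 12.02, 12.12, 12.01, 12.22 and 12.02 in adipose tissue and 2.77, 2.72, 2.65, 2.41 and 2.59 in liver, a difference of -9.45 ± 0.12 (SE; limma adjusted p = 2.2e-09), about 700-fold. Fabp4, the adipocyte fatty acid binding protein, differed by -8.83 and Adipoq, which encodes adiponectin, by -8.55. Col15a1 (-8.46) and Postn (-8.05) encode matrix proteins, Sncg (-7.85) gamma-synuclein, S100b (-7.81) a calcium binding protein, Nnat (-7.66) neuronatin, Hoxd8 (-7.62) a homeodomain factor and Rgcc (-7.32) a cell cycle regulator. Mammary gland of the same lactating group shared some of these genes and not others. Its mean level was 11.63 ± 0.21 for Fabp4, 10.42 ± 0.17 for Hoxd8 and 9.97 ± 0.24 for Postn, but 5.82 ± 0.66 for S100b and 5.17 ± 0.73 for Nnat (SD, n = 5).

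Sequences upstream of 6 of these and related genes are shown because the genes stand at the far ends of the comparison and because several liver-enriched factors described below, such as the HNF1 and HNF4 families, are known to bind near liver genes. They are the RefSeq bases of build GRCr8 that lie before the annotated gene, at most 250 of them, on the strand of the gene. Capitals mark GTTAAT, the core of an HNF1 motif, on either strand, and in Cps1 the HNF4-type CAAAGTCCA on either strand. The genes, and the motif marked in each, were chosen by hand, so matches in these windows do not stand for liver genes in general. Among promoters of genes called higher in liver by at least 4, GTTAAT occurred in 16.1% and CAAAGTCCA in 1.93%. The windows are chr14:18916005-18916254 (+) for Gc, chr2:170671919-170672168 (+) for Fga, chr14:17907044-17907229 (-) for Alb, chr9:76063613-76063862 (+) for Cps1, chr1:143086200-143086398 (-) for Plin1 and chr11:91240245-91240419 (-) for Adipoq.
Gc: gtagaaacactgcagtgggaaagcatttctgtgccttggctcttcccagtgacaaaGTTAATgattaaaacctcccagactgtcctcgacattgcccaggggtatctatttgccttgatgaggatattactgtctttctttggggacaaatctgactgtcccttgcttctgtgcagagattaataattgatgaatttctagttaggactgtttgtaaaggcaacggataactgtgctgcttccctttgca
Fga: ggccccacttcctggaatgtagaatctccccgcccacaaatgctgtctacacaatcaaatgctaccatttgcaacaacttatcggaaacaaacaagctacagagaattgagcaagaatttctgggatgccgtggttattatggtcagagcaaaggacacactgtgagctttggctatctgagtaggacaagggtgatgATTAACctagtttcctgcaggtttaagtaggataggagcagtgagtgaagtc
Alb: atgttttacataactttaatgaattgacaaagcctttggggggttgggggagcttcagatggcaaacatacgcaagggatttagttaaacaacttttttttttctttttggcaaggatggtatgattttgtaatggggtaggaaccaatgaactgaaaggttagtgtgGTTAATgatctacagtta
Cps1: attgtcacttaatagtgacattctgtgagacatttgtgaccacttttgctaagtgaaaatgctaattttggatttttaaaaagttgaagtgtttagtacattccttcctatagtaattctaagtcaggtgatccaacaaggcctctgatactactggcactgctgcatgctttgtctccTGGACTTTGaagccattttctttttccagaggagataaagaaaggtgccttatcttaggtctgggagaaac
Plin1: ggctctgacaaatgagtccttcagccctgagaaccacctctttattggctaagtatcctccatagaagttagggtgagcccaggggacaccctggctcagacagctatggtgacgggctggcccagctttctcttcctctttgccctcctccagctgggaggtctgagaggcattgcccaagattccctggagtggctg
Adipoq: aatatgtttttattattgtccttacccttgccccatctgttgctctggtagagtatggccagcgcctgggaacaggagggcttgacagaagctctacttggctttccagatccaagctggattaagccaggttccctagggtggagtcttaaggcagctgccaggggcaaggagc
No GTTAAT stands in the windows of Plin1 and Adipoq, which says only that these letters are not in them.

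Over 250 bases before the start, GTTAAT occurred on either strand in 6.45% of all 33469 RefSeq promoters and in 4.31% of the 13192 promoters of genes with a probe set. Among promoters of all genes called higher in liver it occurred in 5.09%, and of all genes called higher in adipose tissue in 3.67%. Among the 311 promoters of genes called higher in liver by at least 4 it occurred in 50, or 16.1%, and among the 191 of genes called higher in adipose tissue by at least 4 in 4, or 2.09%. CAAAGTCCA occurred in 0.338% of all promoters and 0.318% of those with a probe set, in 6 of the 311 and in none of the 191. The C/EBP-type TTGCNNAA, whose factors act in both tissues, occurred in 9.22% of all promoters and 8.03% of those with a probe set, in 58 of the 311 (18.6%) and in 29 of the 191 (15.2%). TATAAA, the TATA box, occurred in 12.9% of all promoters and 8.04% of those with a probe set, in 17.0% of the 311 and in 13.6% of the 191. Over all called genes both motifs were near the share for genes with a probe set, with TTGCNNAA in 8.45% of liver and 7.89% of adipose promoters and TATAAA in 7.41% and 7.52%. These shares describe letters and not bound sites, genes with several promoters count more than once, and the motifs may overlap.

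Gene lists grouped by function separated into liver lists, adipose lists and shared ones. The plot of members called in each direction gives all of them beside the shares of all genes. Those shares, 20.2% called higher in liver and 25.0% higher in adipose tissue, apply to every list count below. A count near them does not set a list apart from all genes.

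**Figure D3:**
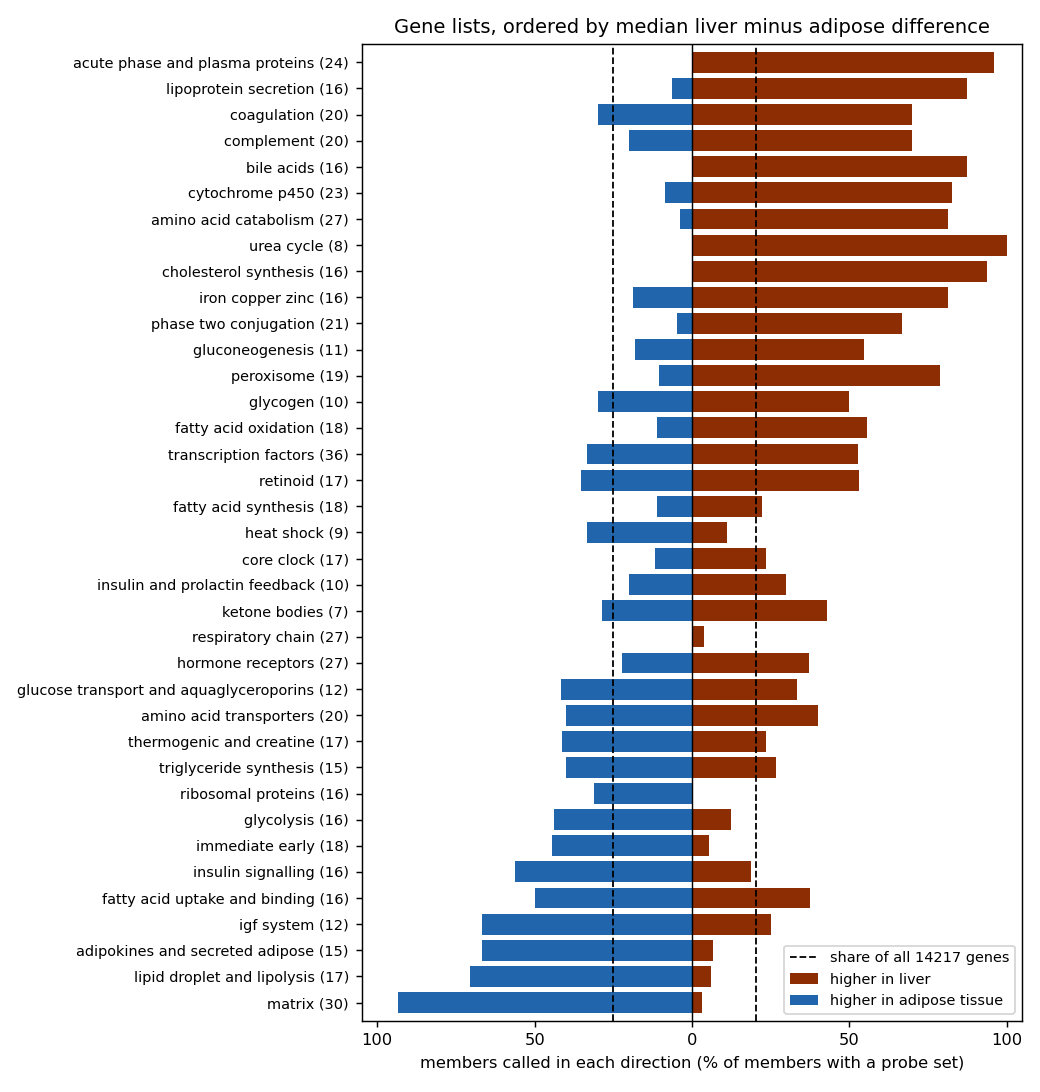
For each list (y axis, number of members with a probe set in brackets) the bar to the right gives the percent of members called higher in liver and the bar to the left the percent called higher in adipose tissue; dashed lines mark 20.2% and 25.0%, the shares of all 14217 genes. Plasma proteins, lipoproteins, bile acids and the urea cycle reach far to the right, matrix and lipid droplet genes far to the left, and respiratory chain genes show almost no bar.

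Transport and binding of fatty acids used different family members in the 2 tissues. Fabp1, the liver fatty acid binding protein, read 12.23 to 12.38 in liver and 2.41 to 3.14 in adipose tissue, and Fabp4 read 3.25 to 4.10 in liver and 12.44 to 12.69 in adipose tissue. Slc27a5, which activates fatty and bile acids, was higher in liver by 9.07 ± 0.12 and Slc27a2 read 11.48 to 11.81 against 2.85 to 5.42, whereas Slc27a1 was higher in adipose tissue by 2.43 (-2.43 ± 0.13, SE). Lpl, the lipase that frees fatty acids from circulating lipoproteins, read 12.37 to 12.60 in adipose tissue. Liver was uneven, at 7.65, 6.38, 6.63, 8.52 and 6.45, and every liver lay below every adipose sample (-5.35 ± 0.29). Gpihbp1, the capillary anchor of that lipase, went the same way (-5.68 ± 0.16), while hepatic lipase, Lipc, was higher in liver (7.39 ± 0.10). Mammary Lpl was 12.48 ± 0.13 and mammary Gpihbp1 averaged 9.50 (n = 5). Of 16 uptake and binding genes, 6 were called higher in liver and 8 in adipose tissue.

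Lipid droplet and lipolysis genes leaned to adipose tissue, with 12 of 17 called there, 1 in liver and a median difference of -2.67 against 0.01 over all genes. The lipases of stored triglyceride were among them, with Pnpla2 at -4.23, Lipe, the hormone-sensitive lipase, at -4.24 ± 0.28 and Mgll at -2.58. Adrb3, the beta 3 adrenergic receptor that starts lipolysis, read 10.31, 9.38, 10.40, 10.39 and 8.94 in adipose tissue and 2.91 to 3.55 in liver. Cideb, which loads lipid into very low density lipoprotein, was the liver call of the list (7.27 ± 0.13), and Cidec and Cidea, which fuse droplets, were higher in adipose tissue (-3.14 ± 0.13 and -2.67 ± 0.24). Plin2, a droplet coat protein found in most cells, read 11.48 to 12.28 in liver and 11.40 to 11.84 in adipose tissue and was not called (0.27 ± 0.11, adjusted p = 0.092). Its probe sets disagree, since the mean over them was called higher in adipose tissue (-1.04).

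Genes for the secretion of lipid as lipoprotein were higher in liver almost throughout. Of 16 genes, 14 were called higher in liver with a median of 7.10. Apob, the structural protein of the particle, read 12.17 to 12.56 in liver and 2.72 to 2.88 in adipose tissue, and Apoa2 12.85 to 13.14 and 3.75 to 4.15. Mttp, which loads Apob with lipid, differed by 7.72. Apoe was present in both tissues, at 12.49 ± 0.29 in liver and 9.25 ± 0.55 in adipose tissue (SD, n = 5), and Pltp, a phospholipid transfer protein, was higher in adipose tissue (-2.22 ± 0.29).

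Synthesis of fatty acids did not separate the tissues as a group. Of 18 genes, 4 were called higher in liver, 2 in adipose tissue and 12 not called, where all genes gave 20.2% and 25.0%. Without rat L201S the liver count was 8, and without L202S or L214S the adipose count was 1. Fasn, fatty acid synthase, read 10.06, 10.56, 10.56, 10.44 and 11.23 in liver and 11.21, 10.71, 9.39, 9.70 and 9.54 in adipose tissue. The ranges overlap, and in L201S and L202S adipose tissue was above liver while in the others liver was above (0.46 ± 0.38, adjusted p = 0.39). Acaca, which makes malonyl-CoA, was higher in adipose tissue in rat L201S and higher in liver in the 4 others (0.24 ± 0.48, adjusted p = 0.74). Acly (0.35 ± 0.16) and Thrsp (-0.03 ± 0.22), a thyroid hormone-responsive lipogenic protein, were high in both tissues and not called. Desaturases differed. Scd, which makes monounsaturated fatty acids, read 7.71, 9.45, 9.79, 11.72 and 11.63 in liver and 11.75 to 12.76 in adipose tissue (-2.24 ± 0.61, adjusted p = 0.021), and the call was lost without L202S or without L214S, with an adjusted p of up to 0.0779. Fads1 and Fads2, which make polyunsaturated fatty acids, were higher in liver, at 8.38 to 10.19 against 6.59 to 7.17 and at 5.15 to 8.03 against 3.06 to 3.62. In both, the liver L201S was the lowest of the 5.

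Triglyceride assembly was split. Dgat1 (-2.11 ± 0.20), Gpd1 (-1.33 ± 0.14) and Lpin1 (-1.20 ± 0.23) were higher in adipose tissue, and glycerol kinase, Gk, which lets a cell reuse glycerol, was higher in liver at 10.43 to 11.06 against 5.98 to 6.72. Acsl1 was near 12 in every sample of both tissues and not called (-0.13 ± 0.10), as was Dgat2 (0.32 ± 0.14). In all, 4 of the 15 genes were called higher in liver and 6 in adipose tissue, where all genes gave 20.2% and 25.0%.

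Fatty acid oxidation leaned to liver by smaller steps, with 10 of 18 genes called there, 2 in adipose tissue (1 on leaving out L202S, L214S, L216S or L219S) and a median of 0.94. Ehhadh, a peroxisomal enzyme, differed by 2.91 ± 0.34, Acadm by 2.18 ± 0.11 and Cpt2 by 1.53 ± 0.18. The gatekeeper enzyme came in 2 forms. Cpt1a read 9.64 to 11.03 in liver and 8.78 to 9.36 in adipose tissue, and Cpt1b, the muscle and brown fat form, read 3.99 to 5.35 in liver and 8.25, 7.52, 6.18, 6.42 and 5.67 in adipose tissue, highest in A201S and A202S. Ketone bodies showed the division of making and using. Bdh1, which makes 3-hydroxybutyrate in liver, read 9.19 to 9.61 in liver and 4.39 to 5.24 in adipose tissue, and Oxct1, the enzyme that lets a tissue burn ketone bodies and that hepatocytes lack, read 11.12 to 11.45 in adipose tissue and 4.63 to 6.43 in liver (-5.92 ± 0.26). Mammary Oxct1 was 11.04 ± 0.21 (SD, n = 5). Of 19 peroxisome genes, 15 were called higher in liver, led by Hao1 (8.50 ± 0.14) and Uox, urate oxidase (8.09 ± 0.12), while the fatty acid transporter Abcd2 (-2.63 ± 0.23) and Pex11a (-2.60 ± 0.24) were higher in adipose tissue.

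**Figure D4:**
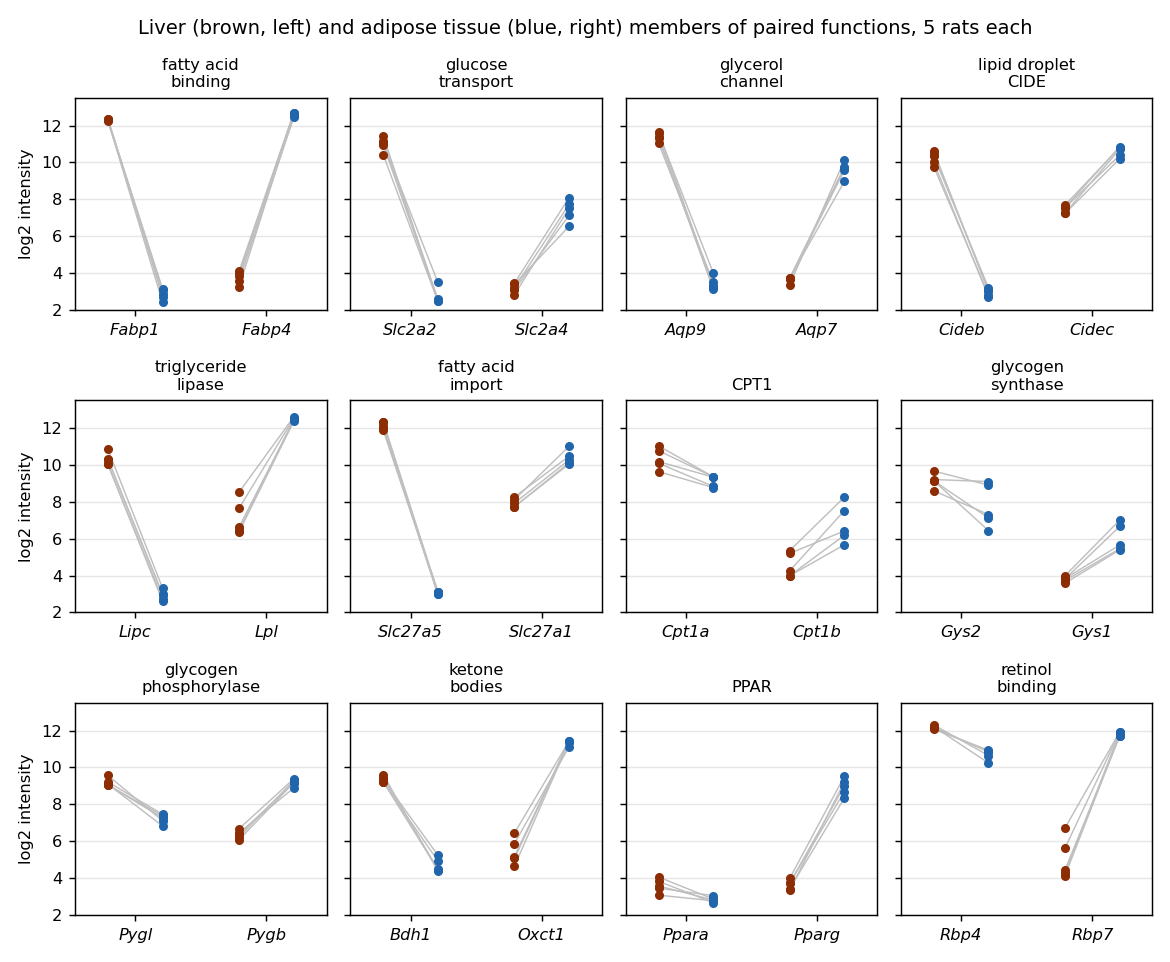
Each panel gives the log2 intensity (y axis) of 2 genes of one function in liver (brown, left of each pair) and adipose tissue (blue, right), with grey lines joining the samples of 1 rat. Fabp1, Slc2a2, Aqp9, Cideb, Lipc, Slc27a5 and Bdh1 drop steeply from liver to adipose tissue, and Fabp4, Slc2a4, Aqp7, Cidec, Lpl, Oxct1, Pparg and Rbp7 climb, whereas Cpt1a, Gys2, Pygl, Ppara and Rbp4 differ by less.

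Carbohydrate genes showed the same exchange of isoforms. Slc2a2, the GLUT2 transporter of hepatocytes, read 10.43 to 11.45 in liver and 2.47 to 3.50 in adipose tissue, and Slc2a4, the insulin-responsive GLUT4, read 2.83 to 3.44 in liver and 8.09, 7.73, 6.54, 7.13 and 7.51 in adipose tissue. Aqp9, which carries glycerol into liver, differed by 7.96 ± 0.16 and Aqp7, which lets it out of adipocytes, by -5.99 ± 0.20. Pklr, the liver and red cell pyruvate kinase, read 10.04 to 10.63 in liver and 2.91 to 3.17 in adipose tissue. Adipose tissue was higher for Aldoa (-2.56 ± 0.20), Pfkm (-2.09 ± 0.19), Pfkp (-1.89 ± 0.18) and Ldhb (-6.04 ± 0.24), and liver for Ldha (0.69 ± 0.16); of 16 glycolysis genes, 7 were called higher in adipose tissue and 2 in liver. In gluconeogenesis 6 of 11 genes were called higher in liver and 2 in adipose tissue, Pck2 (-1.41 ± 0.17) and Mdh1 (-0.57 ± 0.15). The adipose count was 1 to 3 on leaving out 1 rat. G6pc1 of this list had no probe set here. Fbp1, fructose bisphosphatase, read 11.60 to 11.96 in liver and 2.73 to 3.26 in adipose tissue, and Tat and Sds, which feed amino acid carbon to glucose, differed by 5.63 ± 0.18 and 3.22 ± 0.43. Pck1, the cytosolic PEP carboxykinase that serves glucose synthesis in liver and glycerol synthesis in adipocytes, read 11.18, 11.27, 10.61, 11.19 and 11.25 in liver and 11.42, 10.82, 10.89, 10.82 and 10.77 in adipose tissue and was not called (0.16 ± 0.16, adjusted p = 0.49).

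Glycogen enzymes followed the liver and general isoforms. Pygl was higher in liver (1.98 ± 0.15) and Pygb in adipose tissue (-2.82 ± 0.13). Gys2, the liver glycogen synthase, was higher in liver (1.37 ± 0.34), but its adipose level was 9.10 and 8.91 in A201S and A202S and 7.13, 7.31 and 6.44 in the others, and its call was lost without L214S (adjusted p = 0.0569). Ppp1r3b, which targets the phosphatase to liver glycogen, read 9.13 to 10.28 in liver and 5.15 to 5.63 in adipose tissue.

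Nitrogen handling was among the most one-sided groups. All 8 urea cycle genes with a probe set were called higher in liver, with a median of 4.96 and no overlap of samples in any. Over all genes, 20.2% were called higher in liver and 15.6% had every liver above every adipose sample. Cps1, which commits ammonia to urea, read 12.11, 12.24, 11.77, 12.15 and 12.46 in liver and 2.60 to 2.93 in adipose tissue (9.41 ± 0.15, about 682-fold). Otc differed by 8.33 ± 0.13, Ass1 by 6.72 ± 0.15, Nags by 5.04 and Arg1 by 4.88. Of 27 amino acid catabolism genes 22 were called higher in liver, led by Tdo2, tryptophan dioxygenase (8.76 ± 0.26), Mat1a, the liver methionine adenosyltransferase (8.46 ± 0.12), and Gnmt, which uses its product (7.83 ± 0.19). The member called higher in adipose tissue was Bcat2, the first step of branched-chain amino acid breakdown, at 5.50 to 6.22 against 3.42 to 3.85 in liver (-2.29 ± 0.15). Amino acid transporters were divided evenly, with 8 of 20 called in each direction. Slc38a4 (11.08 to 11.51 against 3.21 to 4.63), Slc38a3 (4.64 ± 0.14) and the glutamate carrier Slc1a2 (4.21 ± 0.16) were higher in liver, and Slc1a3 (-6.16 ± 0.16), Slc1a5 (-5.20 ± 0.12) and Slc38a1 (-3.69 ± 0.35) in adipose tissue.

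Sterol and bile acid genes were higher in liver almost throughout. Of 16 cholesterol synthesis genes 15 were called higher in liver and none in adipose tissue, with a median of 2.79, and 13 had every liver above every adipose sample, as had 15.6% of all genes. Sqle, squalene epoxidase, read 9.28 to 10.25 in liver and 4.87 to 5.77 in adipose tissue, Msmo1 differed by 4.10 ± 0.22 and Idi1 by 3.97 ± 0.23. Insig1, the sensor protein that restrains this pathway, was near 12 in both tissues and not called (-0.11). Of 16 bile acid genes 14 were called higher in liver, with a median of 6.20. Cyp7a1, the rate-limiting enzyme of bile acid synthesis, read 11.41, 11.79, 11.29, 10.71 and 11.59 in liver and 2.64 to 2.89 in adipose tissue. Slco1b2, an uptake carrier, and Baat, which conjugates bile acids, differed by 8.60 ± 0.15 and 8.42 ± 0.13.

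Among 23 cytochrome P450 genes 19 were called higher in liver and 2 in adipose tissue. Cyp2c23 (9.04 ± 0.12) and Cyp2c22 (8.67 ± 0.14) followed Cyp2c12. Cyp1b1, an extrahepatic enzyme of steroid and retinoid metabolism, was higher in adipose tissue at 6.62 to 8.09 against 3.10 to 3.48 (-4.11 ± 0.25), as was Cyp4b1 (-1.64 ± 0.17). Of 21 conjugating enzymes 14 were called higher in liver, led by Ugt2b (8.82 ± 0.15), Sult1b1 (8.74 ± 0.13) and Ugt2b1 (7.68 ± 0.11). Gstp1, a glutathione transferase known to be low in hepatocytes, was higher in adipose tissue (-2.14 ± 0.18). Cyp2c, Ugt2b and Sult genes have close relatives, and probe sets of such families may hold signal from more than 1 member.

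Genes of secreted plasma proteins differed by large steps. Of 24 acute phase and plasma proteins 23 were called higher in liver, with a median of 8.65. Serpina1, alpha 1 antitrypsin, differed by 9.39 ± 0.15 and Hamp, the iron hormone hepcidin, by 7.75 ± 0.23. Rbp4, which carries retinol and is made by both tissues, read 12.07 to 12.30 in liver and 10.24 to 10.93 in adipose tissue (1.47 ± 0.15). Coagulation genes were all called, 14 of 20 in liver and 6 in adipose tissue. Those of liver were circulating factors and inhibitors such as F2, prothrombin (9.28 ± 0.13), and Serpinc1, antithrombin (9.30 ± 0.11). Those of adipose tissue were tissue factor, F3 (-5.06 ± 0.13), the plasminogen activators Plat (-4.18 ± 0.17) and Plau (-0.94 ± 0.20), thrombomodulin, Thbd (-1.96 ± 0.25), Vwf (-1.50 ± 0.29) and the circulating factor F8 (-1.28 ± 0.18). Of 20 complement genes 14 were called higher in liver and 4 in adipose tissue. C8a (9.21 ± 0.11), Mbl2 (9.04 ± 0.11) and Cfi (8.64 ± 0.11) were liver genes, and Cfd, the adipocyte protease adipsin, read 12.30 to 12.78 in adipose tissue and 5.37 to 6.87 in liver (-6.43 ± 0.18). The C1q chains, made by macrophages, were higher in adipose tissue, with C1qc at -1.54 ± 0.13 and C1qa at -1.13 ± 0.12.

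Adipose secreted factors were called higher in adipose tissue for 10 of 15 genes. The exception called higher in liver was Rarres2, or chemerin, with 11.95 to 12.47 in liver and 11.25 to 11.87 in adipose tissue (0.62 ± 0.12), and the liver count was 2 without L201S. Iron, copper and zinc genes were called for all 16 members, 13 of them higher in liver, including the hepcidin regulator Tfr2 (6.83 ± 0.19) and the manganese exporter Slc30a10 (6.69 ± 0.13). The copper oxidase Heph (-3.99 ± 0.27), Atp7a (-1.51 ± 0.12) and Slc11a2 (-1.35 ± 0.16) were higher in adipose tissue.

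Hormone receptors were called in both directions, with 10 of 27 higher in liver, 6 higher in adipose tissue and 11 not called. All genes gave 20.2% and 25.0%, so the adipose count was near the share of all genes. Gcgr, the glucagon receptor, read 8.98 to 9.81 in liver and 3.70 to 6.20 in adipose tissue (4.35 ± 0.43), and Avpr1a, a vasopressin receptor, differed by 5.31 ± 0.15. Prlr, the prolactin receptor, read 8.90, 9.39, 8.30, 9.15 and 8.72 in liver and 4.45, 4.90, 6.10, 5.93 and 3.80 in adipose tissue (3.86 ± 0.37), and its mammary level was 8.69 ± 0.47 (SD, n = 5). Stat5a, which carries the prolactin signal, was lower in liver (-1.08 ± 0.19) and averaged 10.34 in mammary gland. Tshr, the thyrotropin receptor, was higher in adipose tissue, at 10.32 to 11.36 against 3.99 to 4.70 in liver. Among the steroid receptors Nr3c2, the mineralocorticoid receptor, was called higher in liver (0.66 ± 0.18, a call lost on leaving out L202S or L219S), and Nr3c1, Esr1 and Pgr differed by -0.05, -0.00 and 0.05 and were not called. Adrb1, Adra1a, Adipor1, Adipor2 and Thrb were not called either, with differences from -0.23 to 0.41.

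Insulin signalling differed in the adaptors. Irs1 was higher in liver (0.90 ± 0.14), Irs2 in adipose tissue (-1.19 ± 0.18) and Irs3 in adipose tissue (-3.13 ± 0.27). Grb14 was higher in liver (2.71 ± 0.19), and its relative Grb10 was higher in adipose tissue, at 11.50 to 11.68 against 7.36 to 7.93 (-3.91 ± 0.13). Of 16 genes of the pathway 9 were called higher in adipose tissue and 3 in liver. Insr was called higher in liver by 0.59 ± 0.18, and that call was lost on leaving out L202S, L214S, L216S or L219S (adjusted p up to 0.101). Of 12 genes of the IGF system 3 were called higher in liver and 8 in adipose tissue. Igfbp1, a liver protein known to be restrained by insulin, read 11.96 to 12.22 in liver and 2.56 to 2.87 in adipose tissue (9.39 ± 0.11, about 671-fold), and Igfals, which holds IGF in the circulating complex, differed by 5.24 ± 0.17. Igfbp6 (-5.74 ± 0.37), Igfbp5 (-5.40 ± 0.12) and Igfbp7 (-2.50 ± 0.11) were higher in adipose tissue. Igfbp2 was called there by a smaller step (-0.88 ± 0.23), a call lost on leaving out L202S, L214S or L216S (adjusted p up to 0.0705). The hormone itself, Igf1, read 11.50 to 11.99 in liver and 11.58 to 11.91 in adipose tissue and was not called (0.03 ± 0.12, adjusted p = 0.86).

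Transcription factors followed lineage, with 19 of 36 called higher in liver and 12 in adipose tissue. Hnf4a, a master regulator of hepatocytes, read 9.98 to 10.84 in liver and 2.78 to 3.21 in adipose tissue, Creb3l3 differed by 6.13 ± 0.16, and Foxa2, Onecut1 and the bile acid receptor Nr1h4 by 4.55, 4.76 and 5.67. Pparg, the master regulator of adipocytes, read 8.34 to 9.52 in adipose tissue and 3.33 to 3.98 in liver, and the adipogenic factor Ebf1 10.58 to 11.02 and 3.47 to 4.32. Ppara, the fasting regulator of liver, was low on this array in both tissues, at 3.07 to 4.05 and 2.67 to 3.05 (0.76 ± 0.17). Cebpa, active in both lineages, read 11.87 ± 0.09 in liver and 11.85 ± 0.15 in adipose tissue (SD, n = 5), and was not called. Retinoid genes were likewise divided, with Rdh7 (7.89 ± 0.18), Aldh1a1 (4.64 ± 0.30) and Lrat (3.37 ± 0.22) higher in liver and Rbp7 (-6.78 ± 0.34), Aldh1a2 (-4.91 ± 0.14) and Cyp26b1 (-3.70 ± 0.41) higher in adipose tissue.

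Extracellular matrix genes were higher in adipose tissue almost throughout. Of 30 genes 28 were called higher there, with a median of -3.94, and 27 had every adipose sample above every liver, as had 19.3% of all genes. Postn, periostin, read 10.41 to 11.46 in adipose tissue and 2.58 to 3.08 in liver. Dcn (-6.40 ± 0.22), Lum (-5.43 ± 0.27), Fbn1 (-5.38) and Col1a1 (-5.02) followed. Col18a1, a basement membrane collagen that hepatocytes make, was the single call toward liver with all 5 rats (1.13 ± 0.15), and the count was 2 without L219S. Markers of fibroblasts and mesothelium moved the same way, as given above, and their part was not tested.

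Among early response genes, those called were nearly all higher in adipose tissue. Egr2 read 9.34, 9.63, 9.52, 10.13 and 11.23 in adipose tissue and 3.18 to 5.59 in liver (-5.68 ± 0.40). Fos (-5.58 ± 0.42) and Fosb (-5.37 ± 0.64) went with it, and Fosb was uneven, at 6.70 and 6.61 in A201S and A216S and 9.30 to 10.41 in the others. Of 18 immediate early genes 8 were called higher in adipose tissue and 1, Ier3, in liver; Egr1, Junb and Dusp1 were not called. The small heat shock proteins Hspb1 (-3.67 ± 0.11) and Cryab (-2.44 ± 0.28) were higher in adipose tissue, and the secretory chaperone Hspa5 in liver (0.69 ± 0.14). How long each tissue stood before RNA isolation is not given in the labels, and the part of handling was not tested.

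Respiratory chain genes showed few calls. Of 27 respiratory chain genes 26 were not called, with differences from -0.29 to 0.46, and Ndufa9 was called higher in liver (0.42 ± 0.13), a call lost on leaving out L202S, L214S, L216S or L219S. The count ran from 0 to 3 on leaving out L201S, L214S, L216S or L219S. Median centring, which moves every gene toward liver, raised it to 7. Of 16 ribosomal protein genes 11 were not called and 5 were called higher in adipose tissue, against 25.0% of all genes, led by Rps15 (-0.59 ± 0.19) and Rps9 (-0.58 ± 0.13), and the count was 2 without L202S, 3 without L216S and 2 under median centring. Clock genes were mostly not called (11 of 17), including Bmal1 (0.19), Per2 (0.16) and Nr1d1 (-0.04). Nfil3 (2.47 ± 0.22) and Hlf (1.56 ± 0.14), output factors of the clock, were higher in liver. The liver count of the clock list was 4 of 17, against 20.2% of all genes, and 7 without L216S.

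A few genes separated the rats within a tissue; they were picked after their values were seen and carry no test between rats. Alb, albumin, read 13.08 to 13.30 in the 5 livers, and in adipose tissue 10.57 and 10.54 in A201S and A202S and 6.84, 6.57 and 6.38 in A214S, A216S and A219S. The same adipose samples stood apart for Ucp1, the uncoupling protein of brown and beige fat, at 7.61 and 8.73 against 3.83, 3.51 and 3.62, so that Ucp1 was not called (-1.82 ± 0.76, adjusted p = 0.098). Cidea was also higher in them, at 10.61 and 10.13 against 8.77 to 9.11, as were Fasn and Acaca. The hepatocyte list mean, which includes Alb, was 4.21 and 4.14 in them against 3.53 to 3.87. Fabp1, by contrast, was 2.41 and 3.14 in A201S and A202S and 2.73 to 3.09 in the others, and Cps1 was 2.93 and 2.67 against 2.60 to 2.79. Cyp2e1 was 8.77, 7.45, 8.41, 5.34 and 4.58, and Prox1 6.38, 3.60, 6.01, 4.32 and 7.88. In liver, milk protein genes stood a little above the low end in L214S, with Lalba at 6.72, Csn2 at 5.97 and Wap at 5.73. In L201S they were 4.61, 4.10 and 4.49, and in the other livers they ran from 2.60 to 3.51. Over all genes, 213 ranged by at least 2 among the 5 livers and 411 (2.89%) among the 5 adipose samples.

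**Figure D5:**
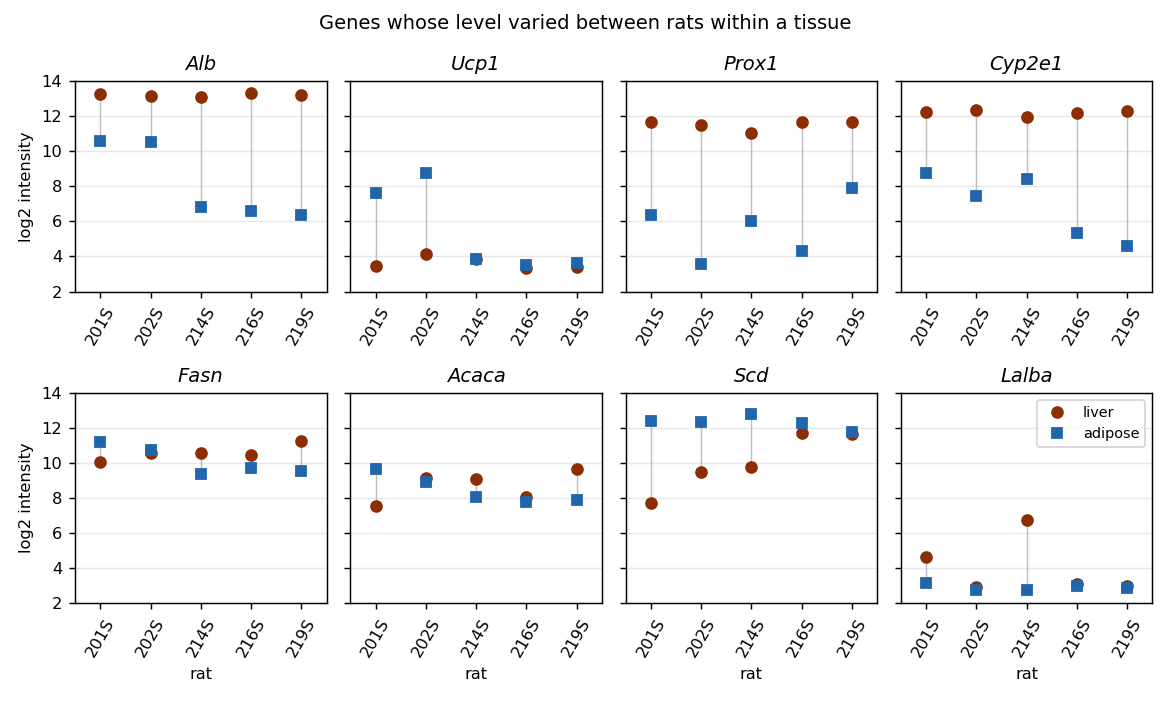
Each panel gives the log2 intensity (y axis) of 1 gene in liver (brown circles) and adipose tissue (blue squares) of each rat (x axis), joined by a grey line. Alb and Ucp1 in adipose tissue are high in A201S and A202S, liver Scd ranges from 7.71 to 11.72, and Fasn changes the tissue in which it is higher between rats.

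The other 3 sets of rats in the series were compared in the same way on their own arrays. Several of their adipose arrays stood apart in the marker lists. Among lactating rats in hypergravity, A210H holds milk protein genes, with Csn2 at 13.03 and Lalba at 13.32 where the other adipose arrays of that group read 2.36 to 3.13, and goes against its label. In the same group the mean of 12 skeletal muscle genes was 10.52 in A217H and 7.65 in A210H, and that of 5 smooth muscle genes was 11.23 in A206H. Among pregnant rats at standard gravity the skeletal muscle mean was 11.76 in A48S and the smooth muscle mean 10.36 in A44S. In that group the mean of 10 lymphocyte genes was 6.48 in A42S, against 4.51 to 5.10 in its other adipose arrays. Among pregnant rats in hypergravity the mean of 10 lymphocyte genes was 7.55 in A56H, where the 5 lactating adipose samples at standard gravity read 4.65 to 5.71. The part of muscle, mammary or lymphocyte RNA in the values of these groups was not tested. Counts of these groups are given with and without those rats, except that L42S was kept.

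In pregnant rats at standard gravity, 9386 probe sets were called (30.2%), and 7776 calls were shared in direction with the lactating rats, which is 66.6% of the 11683 calls in lactation and 82.8% of those in pregnancy, and 7 were called in opposite directions. Without L44S and L48S, which leaves 3 rats, 6372 were called (20.5%) and 5898 shared (50.5% and 92.6%). Among lactating rats in hypergravity 7003 were called (22.6%) and 6330 shared. Without L210H 7606 were called (24.5%) and 6880 were shared, 58.9% of the lactation calls and 90.5% of the others. Without L210H and L217H 6423 were called (20.7%) and 5726 shared (49.0% and 89.1%), and without L206H too, with 2 rats left, 4022 (13%) and 3837 (32.8% and 95.4%). Among pregnant rats in hypergravity 11905 were called (38.4%) and 9150 shared (78.3% and 76.9%), and without L56H 11212 (36.1%) and 8840 (75.7% and 78.8%). Of the leading genes, Gc differed by 9.53 in pregnancy and by 9.94 in lactation and hypergravity without L210H, and Plin1 by -8.77 and -9.47.

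Some liver genes differed by less in pregnancy. Hamp, which read 10.11 to 11.40 in the lactating livers, read 4.52, 5.38, 3.52, 2.94 and 12.08 in the pregnant livers L42S, L44S, L48S, L52S and L57S. All but L57S lay below every lactating liver, and the tissue difference was 2.53 ± 1.27 in pregnancy. Orm1, an acute phase glycoprotein, differed by 9.20 ± 0.16 in lactation and by 6.43 ± 1.22 in pregnancy. Its adipose level was 12.10 in A44S, and without L44S and L48S it differed by 7.61 ± 0.23. The change with stage was not called for Hamp (5.22 ± 1.42, adjusted p = 0.35) or for Orm1 (2.77 ± 1.35, adjusted p = 0.63).

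Whether the tissue difference itself changed with stage or gravity was tested on the per-rat differences. Between lactation and pregnancy at standard gravity no probe set was called by limma, with 2585 (8.33%) at an unadjusted p under 0.05 and a lowest adjusted p of 0.149. Without L44S and L48S none was called either, with 2334 (7.52%) at an unadjusted p under 0.05. The list member with the lowest p was Angptl4, a fasting-induced inhibitor of lipoprotein lipase, whose difference was -2.25 in lactation and lower by 1.94 than in pregnancy (-1.94 ± 0.26), and by 1.71 without L44S and L48S (-1.71 ± 0.28). Between hypergravity and standard gravity in lactation no probe set was called either, with 1937 (6.24%) at an unadjusted p under 0.05. By gene that share was 7.07%, and it held 14 of the 18 fatty acid synthesis genes and 12 of the 16 cholesterol synthesis genes. Without rat L210H the share was 8.26%, with 17 of 18 and 13 of 16. Without L210H and L217H it was 13.8%, with 15 of 18 and 13 of 16. Without L206H too it was 14.4%, with 14 of 18 and 12 of 16, and again no probe set was called in either. The hypergravity rats then left were L203H and L212H. The liver array L212H had an upper quartile of 6.53 and a lower quartile of 3.45, where L203H had 6.95 and 3.26. Leaving out rat L212H alone gave 0 calls, and the part of that array in these shares was not tested. The median difference of the fatty acid synthesis list was 0.40 at standard gravity and -1.26 in hypergravity without L210H, and that of the cholesterol list 2.79 and 1.27. Fasn in the livers of rats in hypergravity read 6.71, 7.28, 9.21, 7.36 and 8.79, all below the 10.06 to 11.23 at standard gravity, and in adipose tissue 11.32, 11.81, 11.79 and 11.53 in A203H, A206H, A212H and A217H, all above the 9.39 to 11.21. A210H, which holds milk protein genes, read 11.89. The tissue difference of Fasn changed by -4.25 ± 0.59, with an adjusted p of 0.13, by -4.53 ± 0.58 without rat L210H (adjusted p = 0.069) and by -4.98 ± 0.66 without L206H, L210H and L217H (adjusted p = 0.086). Fads1 changed by -3.34 ± 0.48 (adjusted p = 0.13) and Thrsp by -1.68 ± 0.28 (adjusted p = 0.19). These gene lists were chosen with such values known, so their counts are a description.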

How the data were processed

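The authors deposited log2 values made with RMA, per the submitters' processing notes, which give no version here. RMA subtracts background, normalizes between arrays and summarises probes, so differences near the low end are compressed. Labelled cDNA was made from 25 ng of total RNA with the NuGEN Ovation kit, per the labels' protocols. No further normalization was applied. Of 31042 probe sets, 20826 had 1 gene symbol, 436 several and 9780 none, and 20758 matched a RefSeq gene (GRCr8), for 14217 genes. Arrays were fitted with limma 3.58.1 in R 4.3.3, with rat as a block and Benjamini-Hochberg adjustment. Stage and gravity were tested on per-rat differences. Tissues were paired because titles give both the same rat code. Deviations of same-rat samples correlated at 0.07 to 0.291, which was above the highest correlation with another rat (0.035 to 0.137) in 2 of the 5 rats. The members and lists were chosen with earlier results of these data known. Named genes were the 10 largest non-overlapping differences in each direction, up to 3 called members per list and direction, and the isoform pairs. Called stage or gravity genes were to be named too, and there were none. The genes given with stage or gravity values were therefore not chosen by such a call. Other members are quoted for their group and were chosen after their values were seen. In a test on simulated data for the tissue comparison, 93% of changes of 2 log2 units were recovered. That figure does not cover smaller changes or the tests of stage and gravity. Smaller changes and the stage test were also simulated, and their recovery is not given here. The gravity test was not simulated. The simulated noise was drawn independently for each probe set, so effects shared across an array were not simulated. Alternatives were other blocks, array sets, weights, variances, scalings, a filter on low values, a minimum difference, the mean of a gene's probe sets, and leaving out each rat; leaving out rats whose adipose array stands apart in marker lists (L210H, and L44S, L48S, L56H, L206H and L217H) was added after seeing the data for the other rats, stage and gravity. Genes without a probe set tied to 1 symbol were not analysed here. The number of arrays, 5 per tissue, limits the precision.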

Additional observations from a re-analysis of the deposited data

Results flagged for a closer look

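In 15 of 236 named genes 1 rat's liver minus adipose difference stood apart from the other 4 by Dixon's criterion, which chance meets in about 1 group in 20. Rats are named by their liver array. Rat L214S was the lowest for Apoh (9.12 against 9.76 to 9.99), Cyp2c12 (9.06 against 9.51 to 9.68), Aldh1a2 (-5.45 against -4.82 to -4.73) and Igf1 (-0.36 against 0.06 to 0.21). Rat L201S was the lowest for Slc27a2 (6.18 against 8.06 to 8.68), Acadm (1.93 against 2.22 to 2.27) and Slc27a1 (-2.89 against -2.39 to -2.21). Rat L219S was the lowest for Tdo2 (7.47 against 8.83 to 9.35) and Atp7a (-1.86 against -1.44 to -1.38) and the highest for Ebf1 (-6.26 against -7.23 to -6.97). Rat L216S was the lowest for Cyp4b1 (-2.39 against -1.57 to -1.33) and the highest for the copper oxidase Heph (-2.63 against -4.50 to -4.15). Rat L202S was the highest for Ugt2b1 (7.89 against 7.58 to 7.67) and Igfbp4 (3.10 against 1.52 to 1.70) and the lowest for Irs2 (-1.98 against -1.09 to -0.78). Of 26 marker list means, the mesothelium mean was low in L202S (5.57 against 6.12 to 6.33) and the red cell mean high in A219S (8.62 against 7.37 to 7.52).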

How the results depend on the processing

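Counts of probe sets and genes called in the tissue comparison stayed within 1.5 times of the values given under every alternative run except the test against a minimum difference of 1 log2 unit, which called 1498 probe sets (931 genes) higher in liver and 1956 (1193 genes) higher in adipose tissue, since it asks for more. Without the replicate block 5178 and 6232 probe sets were called, and leaving out 1 rat gave 4430 to 4898 and 5565 to 6222. For the change with stage, leaving out 1 rat gave 0 to 10 calls and the fit with no replicate block 6. For the change with gravity, the fit of all 20 rats gave 9 calls, no replicate block 12, and leaving out 1 rat 0 to 1. Leaving out together rats that stood apart (L44S and L48S for stage, L210H and L217H or these and L206H for gravity) gave 0 calls. The cause was not tested. Of 224 called named genes, 15 lost the call without 1 rat. Signs turned for Cry2 and Plin2 with the mean of probe sets (0.022 and -1.04), for Acsl1 and Scd2 under median centring (0.016 and 0.060), and for Igf1 under quantile normalization (-0.042). Leaving out 1 rat gave -0.15 to 0.83 for Acaca, -0.31 to 0.20 for Scd2, -0.046 to 0.10 for Pfkl and -0.0091 to 0.13 for Igf1. Of these only Cry2 was called in the first place. Levels near the array floor limit the folds.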
